A study of Arabidopsis thaliana with 12 samples.

Results

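The 10 genes described here make jasmonate, inactivate it or rise in response to it, and they were *LOX2*, *AOS*, *OPR3*, *JRG21*, *VSP1*, *VSP2*, *MBP1*, *ARGAH2*, *NATA1* and *CORI3*. They make up 10 of the 23936 features tested. They were chosen by their loci, on the log2 signals that the 4 groups had shown. Their values are therefore given as a description, with no test. Each gene was represented on one-colour Agilent arrays, and all 21 probes of the 10 genes were well above background on all 12 arrays.

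The arrays measured transcripts of whole Arabidopsis seedlings after 14 days on agar plates. Col-0 is the wild type. The transgenic line iU1-52 was made in the *glcna.ut2-1* mutant with double-stranded RNA interference against *GlcNA.UT1*, and it was the only line of this kind on the arrays. Both genes encode enzymes that make the nucleotide sugar UDP-GlcNAc. Seeds of both genotypes were sown on MS medium or on MS with 200 mM NaCl, which gave 4 groups (Col-0 MS, iU1-52 MS, Col-0 NaCl and iU1-52 NaCl) of 3 replicates each.

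Jasmonate is a lipid hormone made from linolenic acid of the plastid membranes. Lipoxygenases such as LOX2 add oxygen to the fatty acid, AOS and an allene oxide cyclase close the ring in the plastid, and OPR3 reduces the product in the peroxisome. The conjugate with isoleucine, made by JAR1, brings the receptor COI1 together with JAZ repressors, which are then degraded and release MYC2 and related transcription factors. One branch of the response, through MYC2, is known for the vegetative storage proteins, and another, through ERF1 and ORA59, for the plant defensins.

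On each array 75.4% to 79.4% of the spots exceeded the background clearly, and 0 spots were saturated. The iU1-52 NaCl replicates were the most variable, with a median SD of 0.22 over all features against 0.071 to 0.079 in the other groups. Replicate 1 of that group stood apart from replicates 2 and 3, with a 75th percentile of signal of 2503 against 3872 and 3920. Each replicate number was 1 slide and each group had 1 fixed position on it, so group cannot be told apart from position. No probe was matched to *GlcNA.UT1*, while the brighter probe of *GlcNA.UT2* ran from 12.66 to 12.85 in Col-0 MS and from 11.62 to 11.84 in iU1-52 MS, and from 12.88 to 12.95 in Col-0 NaCl and from 12.19 to 12.70 in iU1-52 NaCl. The mean signal of 6 leaf genes was between 13.34 and 13.83 on the iU1-52 NaCl arrays and between 15.67 and 15.88 on the other 9 arrays. The mean of 6 seed genes was between 16.34 and 16.58 in iU1-52 NaCl, between 13.35 and 14.87 in Col-0 NaCl and at most 3.57 on the MS arrays.

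All signals below are quantile-normalized and on the log2 scale, and a difference of 1 is 2-fold. On MS, iU1-52 exceeded Col-0 with no overlap between the arrays in 9 of the 10 genes (7.25% of all features), and 0 were lower in this way (8.96%). The difference was at least 2-fold upward in 3 genes, *JRG21*, *NATA1* and *MBP1* (0.852%), and downward in 0 (0.338%). Without replicate 1 of Col-0 MS, the count upward was 6, with *VSP1* at 1.06, *VSP2* at 1.1 and *LOX2* at 1.15, and without replicate 3 of Col-0 MS it was 2, with *MBP1* at 0.93. In NaCl, 6 of them were lower in iU1-52 with no overlap (24.4% of all features) and 3 were higher (28.9%). The largest differences on MS belonged to *JRG21* and *NATA1*, and those in NaCl to *LOX2* and *ARGAH2*. The members' median difference between the lines was 0.94 on MS and -1.20 in NaCl, where the medians of all features were -0.01 and 0.05.

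**Figure D1:**
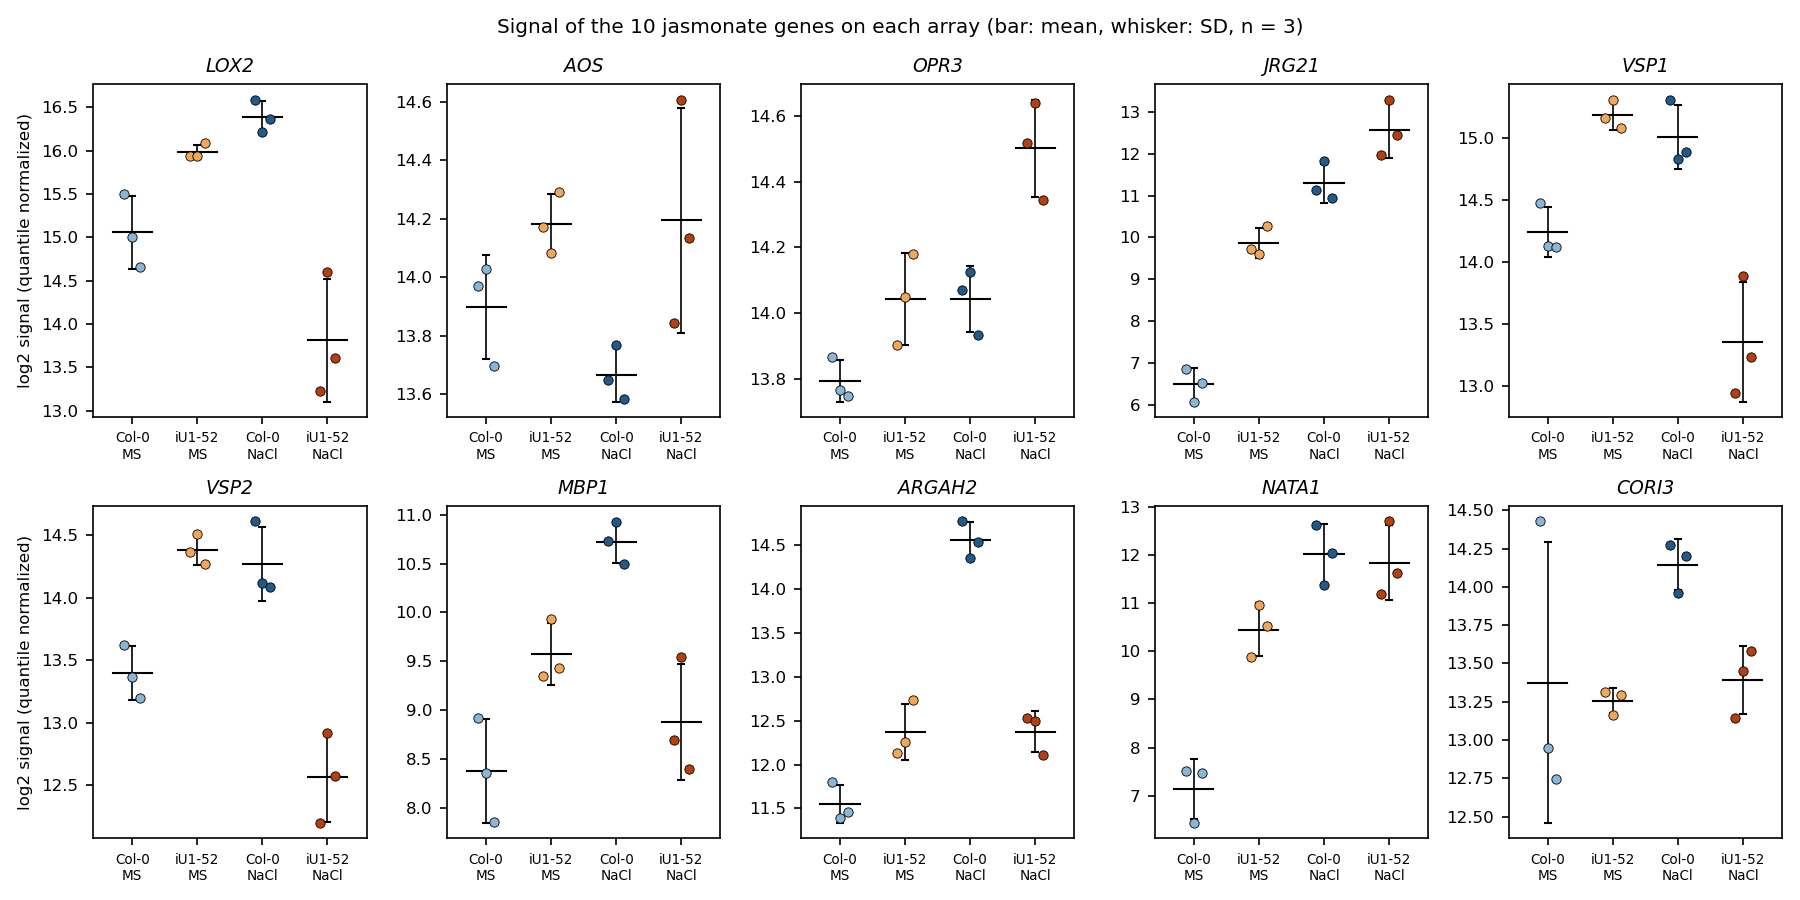
Quantile-normalized log2 signal of the 10 jasmonate genes (vertical axes, which differ between panels and do not start at 0) in the 4 groups (horizontal axes). Points are arrays, in the order of replicates 1 to 3, bars are means and whiskers SD (n = 3). *LOX2* lay between 13.23 and 14.60 in iU1-52 NaCl, below every other array, while *JRG21* was highest in that group.

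Among the synthesis genes, the lipoxygenase gene *LOX2* (AT3G45140) differed most between groups. Its signals were 15.50, 15.01 and 14.66 in Col-0 MS, and 15.94, 15.94 and 16.08 in iU1-52 MS. With salt they were 16.59, 16.21 and 16.36 in Col-0, and 13.23, 14.60 and 13.60 in iU1-52. All 4 groups were separate, in the order Col-0 NaCl, iU1-52 MS, Col-0 MS and iU1-52 NaCl. The line difference was 0.93 on MS (SE 0.31) and -2.58 in NaCl (SE 0.31), a 5.96-fold lower signal. Here and below, the SE pools the spread of the 4 groups. The SD of *LOX2* was 0.42 in Col-0 and 0.08 in iU1-52 on MS, and 0.19 in Col-0 and 0.71 in iU1-52 in NaCl. The gene had 4 probes, whose differences in NaCl ranged from -2.78 to -1.76.

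*AOS* (AT5G42650), which encodes allene oxide synthase, the next enzyme, took another course. It gave 13.97, 14.03 and 13.70 in Col-0 MS, 14.17, 14.08 and 14.29 in iU1-52 MS, 13.65, 13.77 and 13.58 in Col-0 NaCl, and 13.84, 14.61 and 14.13 in iU1-52 NaCl. The iU1-52 arrays lay above the Col-0 arrays on either medium, by 0.28 on MS and 0.53 in NaCl (SE 0.17 each), and the 2 groups of each line overlapped. *OPR3* (AT2G06050), the oxophytodienoate reductase of jasmonate synthesis, gave 13.87, 13.77 and 13.75 in Col-0 MS, 13.90, 14.05 and 14.18 in iU1-52 MS, 14.07, 14.13 and 13.93 in Col-0 NaCl, and 14.52, 14.64 and 14.35 in iU1-52 NaCl. Its difference between the lines was 0.25 on MS and 0.46 in NaCl (SE 0.10 each). The iU1-52 NaCl arrays were the highest for *OPR3*, and iU1-52 MS and Col-0 NaCl overlapped. Of the 3 synthesis genes, *LOX2* alone was therefore lower in iU1-52 with salt.

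*JRG21* (AT3G55970, jasmonate-regulated gene 21) encodes an oxygenase that hydroxylates jasmonate and so takes it out of the active pool. It had the widest range of the 10 genes, 6.06 between its lowest and highest group means. Signals were 6.87, 6.09 and 6.54 in Col-0 MS, 9.73, 9.60 and 10.28 in iU1-52 MS, 11.13, 11.82 and 10.94 in Col-0 NaCl, and 11.96, 13.28 and 12.43 in iU1-52 NaCl. The 4 groups did not overlap, and each step of this order was upward. In iU1-52 it was 10.3-fold higher on MS (difference 3.37, SE 0.35) and 2.40-fold higher in NaCl (difference 1.26). It was the only member at least 2-fold higher in iU1-52 with salt (5.74% of all features were), while 5 members were at least 2-fold lower (5.82%). Without replicate 2 of iU1-52 NaCl, the array with its highest signal, the difference in NaCl was 0.90.

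The vegetative storage proteins VSP1 and VSP2 are acid phosphatases that accumulate in leaves after wounding or jasmonate treatment. Their genes, *VSP1* (AT5G24780) and *VSP2* (AT5G24770), are neighbours on chromosome 5 of the annotation. *VSP1* gave 14.47, 14.13 and 14.12 in Col-0 MS, 15.16, 15.31 and 15.08 in iU1-52 MS, 15.31, 14.83 and 14.89 in Col-0 NaCl, and 12.94, 13.89 and 13.23 in iU1-52 NaCl. *VSP2* gave 13.62, 13.37 and 13.20 in Col-0 MS, 14.37, 14.51 and 14.27 in iU1-52 MS, 14.61, 14.12 and 14.09 in Col-0 NaCl, and 12.20, 12.92 and 12.58 in iU1-52 NaCl. In both genes iU1-52 MS and Col-0 NaCl overlapped at the top, Col-0 MS was lower, and iU1-52 NaCl was below every other array. The line difference of *VSP1* was 0.94 on MS and -1.66 in NaCl (SE 0.22 each). Its other 3 probes gave differences between -2.18 and -2.08 in NaCl, and the other probe of *VSP2* gave -1.50. The signals of *VSP1* and *VSP2* had a Pearson correlation of 0.99 over the 12 arrays, and whether their probes detect both transcripts was not tested.

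*MBP1* (AT1G52040), a myrosinase-binding protein gene, and *ARGAH2* (AT4G08870), an arginase gene, were both highest in Col-0 with salt. *MBP1* gave 8.92, 8.36 and 7.85 in Col-0 MS, 9.35, 9.94 and 9.44 in iU1-52 MS, 10.73, 10.93 and 10.50 in Col-0 NaCl, and 8.70, 9.54 and 8.40 in iU1-52 NaCl. *ARGAH2* gave 11.80, 11.39 and 11.46 in Col-0 MS, 12.13, 12.26 and 12.74 in iU1-52 MS, 14.77, 14.35 and 14.54 in Col-0 NaCl, and 12.53, 12.49 and 12.10 in iU1-52 NaCl. The Col-0 NaCl arrays stood above all others in both genes, and the 2 groups of iU1-52 overlapped. *ARGAH2* differed between the lines by 0.82 on MS and by -2.18 in NaCl (SE 0.19 each), and NaCl minus MS was 3.00 in Col-0 and 0.00 in iU1-52.

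*NATA1* (AT2G39030) encodes an acetyltransferase that acts on ornithine, the product of arginase. Its signals were 7.52, 6.43 and 7.48 in Col-0 MS, 9.87, 10.95 and 10.52 in iU1-52 MS, 12.62, 11.38 and 12.04 in Col-0 NaCl, and 11.19, 12.70 and 11.62 in iU1-52 NaCl. The MS groups were far apart, by 3.31 (SE 0.47) or 9.89-fold, and the NaCl groups overlapped with a difference of -0.18. That last value was 0.15 without replicate 1 of iU1-52 NaCl, and its sign was kept in 15 of 17 alternative settings. *CORI3* (AT4G23600), the coronatine-induced cystine lyase gene, gave 14.43, 12.95 and 12.75 in Col-0 MS, 13.31, 13.17 and 13.30 in iU1-52 MS, 14.27, 13.96 and 14.20 in Col-0 NaCl, and 13.14, 13.45 and 13.58 in iU1-52 NaCl. It was the 1 member with no separation on MS, where the difference was -0.12, and 0.41 without replicate 1 of Col-0 MS. In NaCl the iU1-52 arrays were lower by 0.75 on average and did not overlap with Col-0.

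**Figure D2:**
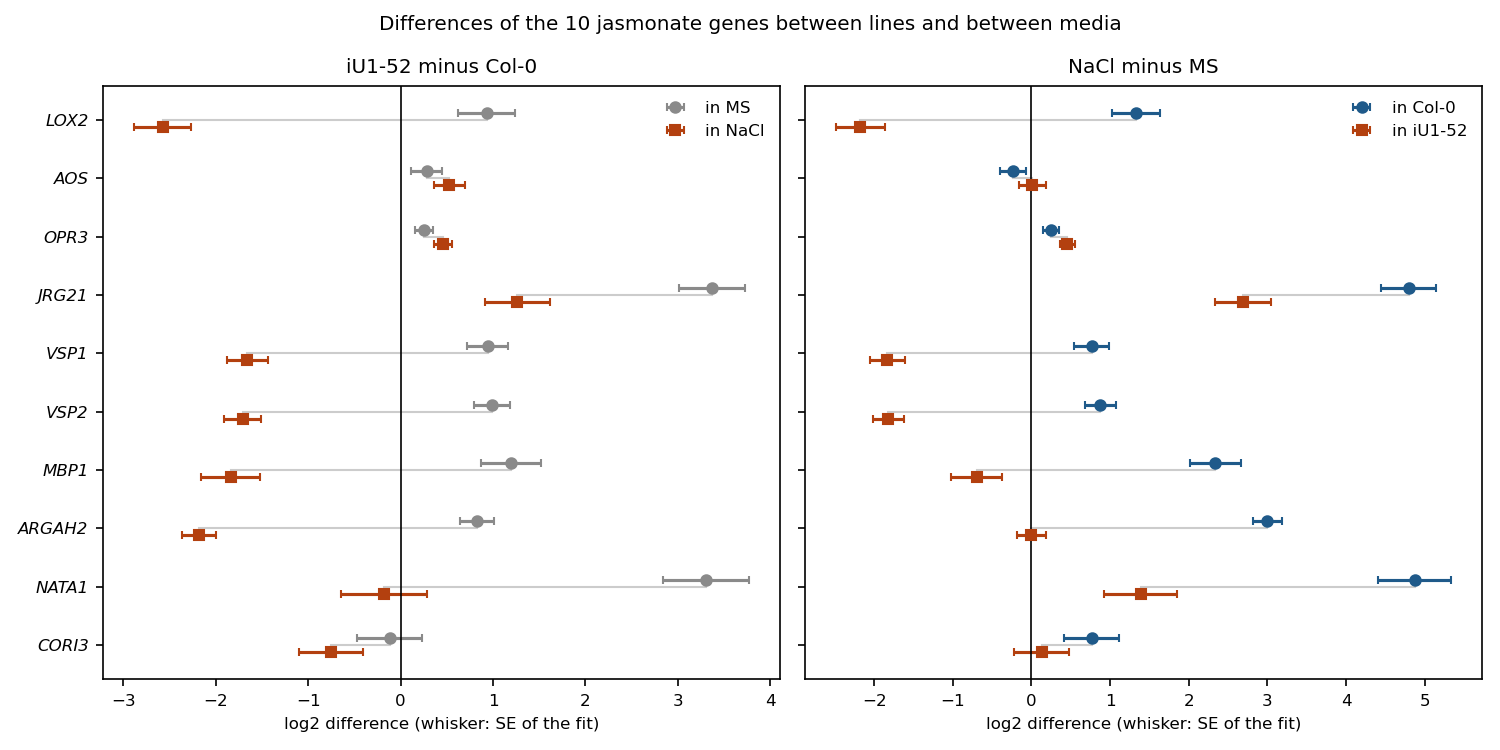
Log2 differences of the 10 genes between the lines on each medium (left, iU1-52 minus Col-0) and between the media in each line (right, NaCl minus MS). Whiskers are the SE of the fit, which pools the spread of all groups. On the left, *VSP1*, *VSP2*, *LOX2*, *MBP1* and *ARGAH2* are right of 0 on MS and left of 0 in NaCl, and on the right *JRG21* and *NATA1* are right of 0 in both lines.

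Salt alone was then compared within each line. In Col-0, 8 of the 10 genes were higher with salt without overlap (40.1% of all features were), 5 of them at least 2-fold (11.2%), and 0 were lower without overlap (42.4%) or by 2-fold (12.4%). *NATA1* was 29.3-fold and *JRG21* 27.8-fold higher, followed by *ARGAH2* with 8.01-fold, *MBP1* with 5.06-fold and *LOX2* with 2.52-fold. In iU1-52, 3 genes were higher with salt without overlap (*OPR3*, *JRG21* and *NATA1*; 36.0% of all features) and 3 were lower (*VSP1*, *VSP2* and *LOX2*; 33.0%). With salt in iU1-52, 2 genes were at least 2-fold higher (13.2%) and 3 at least 2-fold lower (14.5%). Without replicate 2 of iU1-52 NaCl, 1 was higher and 4 were lower by this measure, with *NATA1* at 0.96 and *MBP1* at -1.03. The medians over the 10 genes were 1.1 in Col-0 and 0.01 in iU1-52, beside -0.01 and 0.03 over all features. The median in Col-0 was 1.43 without replicate 1 of Col-0 MS, the array with the highest signal of its group in 9 of the 10 genes.

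The difference between the lines in NaCl minus that on MS was at least 2-fold in the negative direction for 7 of the 10 genes, as it was for 5.92% of all features, and at least 2-fold in the positive direction for 0 genes (5.40%). The values were -3.51 for *LOX2*, -3.48 for *NATA1*, -3.04 for *MBP1*, -3.00 for *ARGAH2*, -2.70 for *VSP2*, -2.60 for *VSP1* and -2.11 for *JRG21*. They were -0.64 for *CORI3*, 0.21 for *OPR3* and 0.24 for *AOS*. The value of *CORI3* was -1.16 without replicate 1 and -0.32 without replicate 3 of Col-0 MS, and that of *AOS* was 0.42 without replicate 1 and 0.04 without replicate 2 of iU1-52 NaCl. Within the slides, the median of this value over the 10 genes was -2.52, -2.23 and -2.61. In iU1-52 NaCl, replicate 1 was the lowest array for 7 genes and replicate 2 the highest for 8.

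With salt, all 6 leaf genes were also lower in iU1-52, by 0.23 for *RBCS1A* up to 3.98 for *CA1*, and all 6 seed genes were higher, by 1.43 to 2.89. Of the 6 root genes, 5 were higher in iU1-52 with salt without overlap, by 0.20 for *CASP1* up to 1.42 for *TIP2;3*, and *EXP7* was lower without overlap (difference -0.37). On MS the leaf genes differed by -0.15 to 0.19. In these whole seedlings, fewer cells of a type and less RNA per cell cannot be told apart, and the part of leaf, seed or root tissue in the values of the 10 genes was not tested.

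Over the 12 arrays, the 45 pairs of members had Pearson correlations from -0.50 to 0.99 with a median of 0.34, as a description of arrays that share their groups. *MBP1* was closest to the mean of the other 9 genes (r = 0.89), and *AOS* was farthest (r = -0.08). Of the matched genes outside the 10, those most like the members' mean over the 12 arrays were *EXPA1* (r = 0.93), AT5G24760 (0.92), AT3G28220 (0.92), AT4G28940 (0.90), *AAP7* (0.88), *bZIP58* (0.88), AT3G47050 (0.87), *AAE12* (0.87), *PP2-B6* (0.86) and *BGLU18* (0.86). AT5G24760 is the next gene to *VSP2* in the annotation. AT3G28220 had the widest change of these, with mean signals of 8.76 in Col-0 MS, 11.00 in iU1-52 MS, 14.33 in Col-0 NaCl and 11.94 in iU1-52 NaCl.

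Other genes of the pathway, 86 in all, were listed by role, and 80 of them could be tested. Unlike the 10 members, they carry adjusted p-values over all features, but this list too was drawn up with earlier results of these data known. Calls needed an adjusted p under 0.05 and a change of at least 2-fold. On MS, 2 of the 80 genes were called (0.326% of all features), 2 higher in iU1-52 (0.301%) and 0 lower (0.0251%), and the median difference was 0.25. These were *TPS04* (AT1G61120), the geranyllinalool synthase gene, and AT2G38240. *TPS04* gave 5.45, 4.11 and 5.96 in Col-0 MS and 10.52, 10.10 and 10.86 in iU1-52 MS, a difference of 5.32 (SE 0.94, adjusted p = 0.0048). AT2G38240 gave 5.17, 4.19 and 4.80 in Col-0 MS and 8.68, 9.64 and 9.60 in iU1-52 MS, a difference of 4.59 (adjusted p = 0.00084). The groups of both genes were far apart, and 2 of the 3 Col-0 MS arrays were well above background for each.

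In NaCl, 19 of the 80 genes were called between the lines (11.0% of all features), 16 higher (5.35%) and 3 lower (5.65%) in iU1-52, and the median difference of the 80 was 0.34 against 0.05 for all features. Of 19 synthesis genes, 3 rose and 1 fell. *AOC2* (AT3G25770), one of 4 allene oxide cyclase genes, was the one that fell. It gave 11.77, 10.96 and 11.55 in Col-0 MS, 11.72, 11.85 and 12.53 in iU1-52 MS, 13.04, 12.51 and 12.76 in Col-0 NaCl, and 10.65, 11.24 and 10.69 in iU1-52 NaCl. Its line difference in NaCl was -1.91 (adjusted p = 0.00028), with no overlap. The same difference was -0.18 for *AOC1* (adjusted p = 0.62), 0.33 for *AOC3* (adjusted p = 0.10) and 0.11 for *AOC4* (adjusted p = 0.27). *AOC1*, *AOC2* and *AOC3* lie side by side in the annotation, and how far their probes share transcripts was not tested.

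None of the other lipoxygenase genes of jasmonate synthesis was lower in iU1-52 with salt, as *LOX2* was. *LOX6* (AT1G67560) was higher in iU1-52 in NaCl by 1.21 (adjusted p = 0.00035) and *LOX3* (AT1G17420) by 1.04 (adjusted p = 0.0046), while *LOX4* differed by 0.53 (adjusted p = 0.12). Without replicate 2 of iU1-52 NaCl, *LOX3* differed by 0.79, and without replicate 3 of Col-0 NaCl by 0.90, both under 2-fold. AT3G62590, also of the synthesis list, rose by 1.47 (adjusted p = 4.1e-05).

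**Figure D3:**
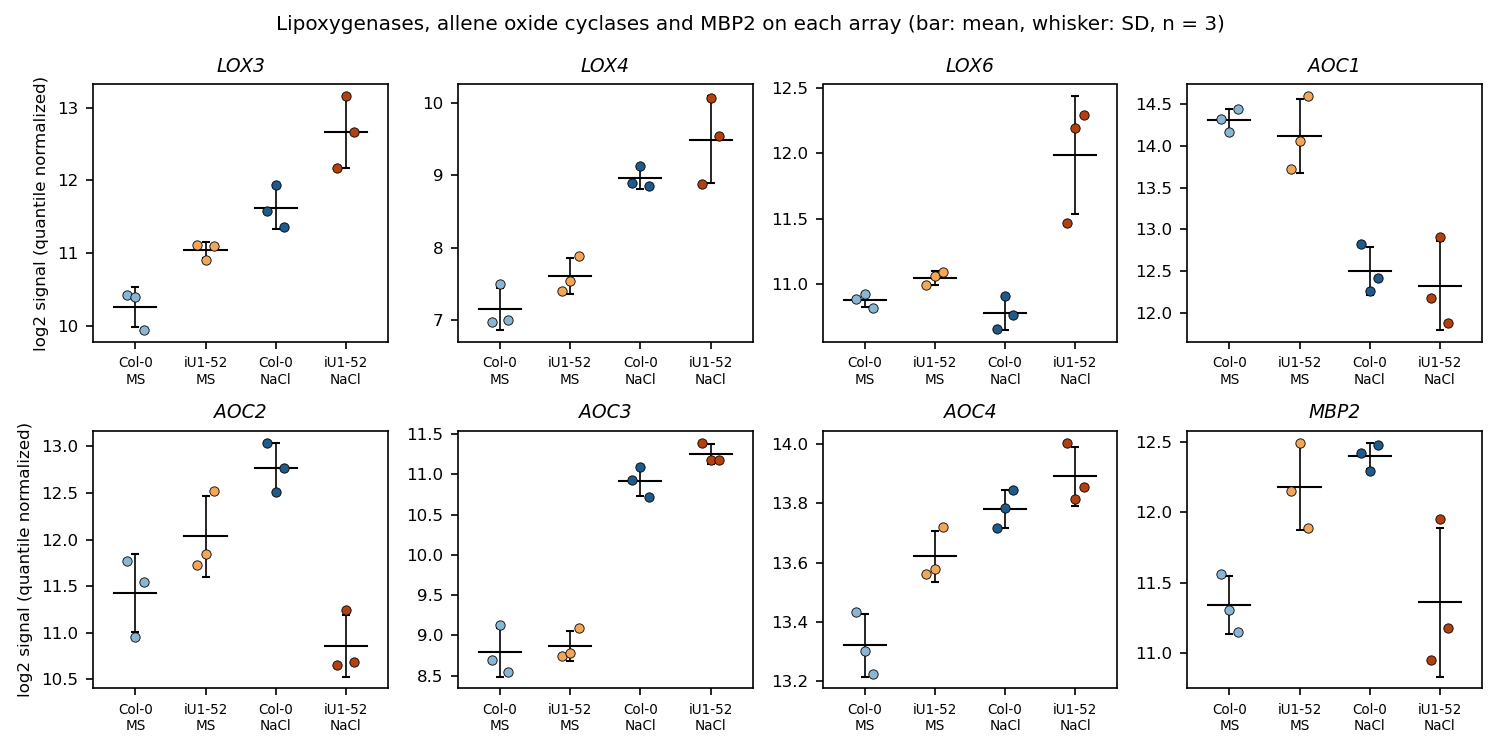
Quantile-normalized log2 signal of the lipoxygenase genes *LOX3*, *LOX4* and *LOX6*, the allene oxide cyclase genes *AOC1* to *AOC4* and *MBP2* (vertical axes, which differ between panels and do not start at 0) in the 4 groups. Points are arrays, in the order of replicates 1 to 3, bars means and whiskers SD (n = 3). *AOC2* lay between 10.65 and 11.24 in iU1-52 NaCl and between 12.51 and 13.04 in Col-0 NaCl.

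Of 12 genes of conjugation, turnover and transport, 6 rose in iU1-52 in NaCl (5.35% of all features) and 0 fell (5.65%). *CYP94B1*, which oxidizes the isoleucine conjugate of jasmonate, rose by 1.89 (adjusted p = 7.9e-05). *ABCG16*, a transporter of jasmonates, rose by 1.82 (adjusted p = 0.00013), and *ST2A*, a sulfotransferase of hydroxyjasmonate, by 1.37 (adjusted p = 5.5e-05). The other 3 were *CYP94B3* with 1.29, AT3G11180 with 1.31 and AT2G38240 with 1.15, and the call of AT2G38240 was lost without replicate 2 of iU1-52 NaCl (adjusted p = 0.138), replicate 2 of Col-0 NaCl (adjusted p = 0.116) or replicate 3 of Col-0 NaCl (adjusted p = 0.106). *JAR1* differed by 0.74 (adjusted p = 0.0048), under the 2-fold limit.

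Of 17 genes of perception and repression, 1 was called between the lines in NaCl (11.0% of all features). That was the repressor gene *JAZ4*, which rose by 1.28 (adjusted p = 0.00038). *COI1* differed by 0.26 (adjusted p = 0.019), *JAZ1* by 0.22 (adjusted p = 0.51) and *JAZ10* by 0.52 (adjusted p = 0.058). On MS, the difference of *JAZ10* was 1.09 (adjusted p = 0.06), with arrays at 8.64, 8.37 and 8.75 in Col-0 and 9.30, 9.82 and 9.92 in iU1-52, which do not overlap.

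Of 14 transcription factor and Mediator genes, 1 rose (5.35% of all features) and 1 fell (5.65%) in iU1-52 in NaCl. *ANAC019*, which encodes a NAC factor, rose by 1.42 (adjusted p = 0.00083). *NIG1* (AT5G46830), a basic helix-loop-helix factor gene, gave 7.48, 7.12 and 6.99 in Col-0 NaCl. It was not well above background on any iU1-52 NaCl array, and was 9.78-fold lower there against a floor. The adjusted p of 7.8e-06 belongs to the fitted difference of -5.39, which uses those dim signals, and not to this fold. Such a fold sets the mean of the bright group against the lowest signal of any probe well above background on each array. Where the gene's own dim signal was above that floor, it was used instead. The floor is not a detection limit of the spot, so the fold is not a minimum. With normexp background correction the difference of *NIG1* was -1.42 (adjusted p = 0.00021). That correction models the background anew from median pixel intensities and then adds a constant to every spot. *MYC2* differed by -0.08 (adjusted p = 0.72).

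The plant defensin genes were higher in iU1-52 with salt. *PDF1.2a* (AT5G44420) gave 10.98, 9.94 and 9.70 in Col-0 MS, 9.19, 11.58 and 10.91 in iU1-52 MS and 7.74, 6.69 and 6.91 in iU1-52 NaCl. It was not well above background on any Col-0 NaCl array, and the signal in iU1-52 NaCl was 15.4-fold higher against the floor. The adjusted p of 0.00012 belongs to the fitted difference of 4.64, which uses those dim signals. With normexp correction the difference was 1.26 (adjusted p = 0.0435). *PDF1.2b* rose by 2.94 (adjusted p = 0.003) and *PDF1.3* by 2.26 (adjusted p = 0.00093). With normexp correction the difference of *PDF1.2b* was 1.36 (adjusted p = 0.0063). These genes are close relatives, and how far their probes share transcripts was not tested. *TPS04* was called in NaCl with 1.61 (adjusted p = 0.0477), and this call was lost when any 1 of 9 arrays was left out, with 0.87 (adjusted p = 0.166) without replicate 2 of iU1-52 NaCl. In all, 4 of 10 other response genes rose (5.35% of all features) and 0 fell (5.65%).

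**Figure D4:**
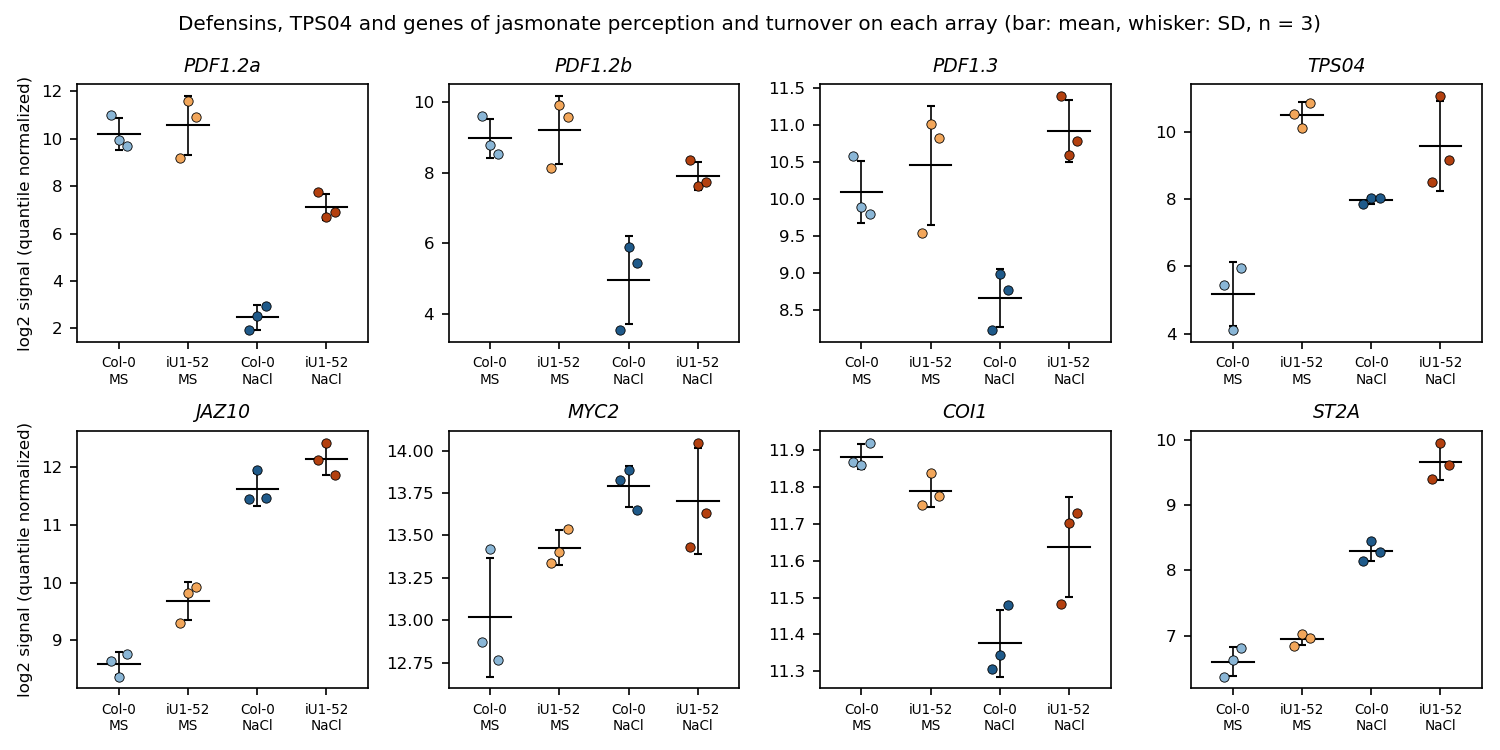
Quantile-normalized log2 signal of the defensin genes *PDF1.2a*, *PDF1.2b* and *PDF1.3*, of *TPS04*, and of *JAZ10*, *MYC2*, *COI1* and *ST2A* (vertical axes, which differ between panels and do not start at 0) in the 4 groups. Points are arrays, in the order of replicates 1 to 3, bars means and whiskers SD (n = 3). The Col-0 NaCl points of *PDF1.2a* were not above background, while those of iU1-52 NaCl lay between 6.69 and 7.74.

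Paralogs of the members gave a close comparison in NaCl, in which 1 of 8 rose (5.35% of all features) and 1 fell (5.65%). *MBP2* (AT1G52030), the neighbour of *MBP1*, fell in iU1-52 with a difference of -1.04 (adjusted p = 0.005), where *MBP1* gave -1.84. The call of *MBP2* was lost without replicate 1 (-0.83) or replicate 3 (-0.95) of iU1-52 NaCl or replicate 3 of Col-0 NaCl (-0.99). *ARGAH1*, the second arginase gene, differed by 0.52 (adjusted p = 0.0029) where *ARGAH2* gave -2.18. *NATA2*, the neighbour of *NATA1*, differed by 0.33 (adjusted p = 0.014) in NaCl and by -0.01 on MS (adjusted p = 1), where *NATA1* gave 3.31. *OPR1* differed by 0.42 (adjusted p = 0.037) in NaCl, and *LOX1*, a lipoxygenase gene outside jasmonate synthesis, rose by 1.32 (adjusted p = 0.0044). *LOX5* gave 0.13 (adjusted p = 0.44), *HPL1* -0.56 (adjusted p = 0.16) and AT4G29260 -0.50 (adjusted p = 0.0013).

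**Figure D5:**
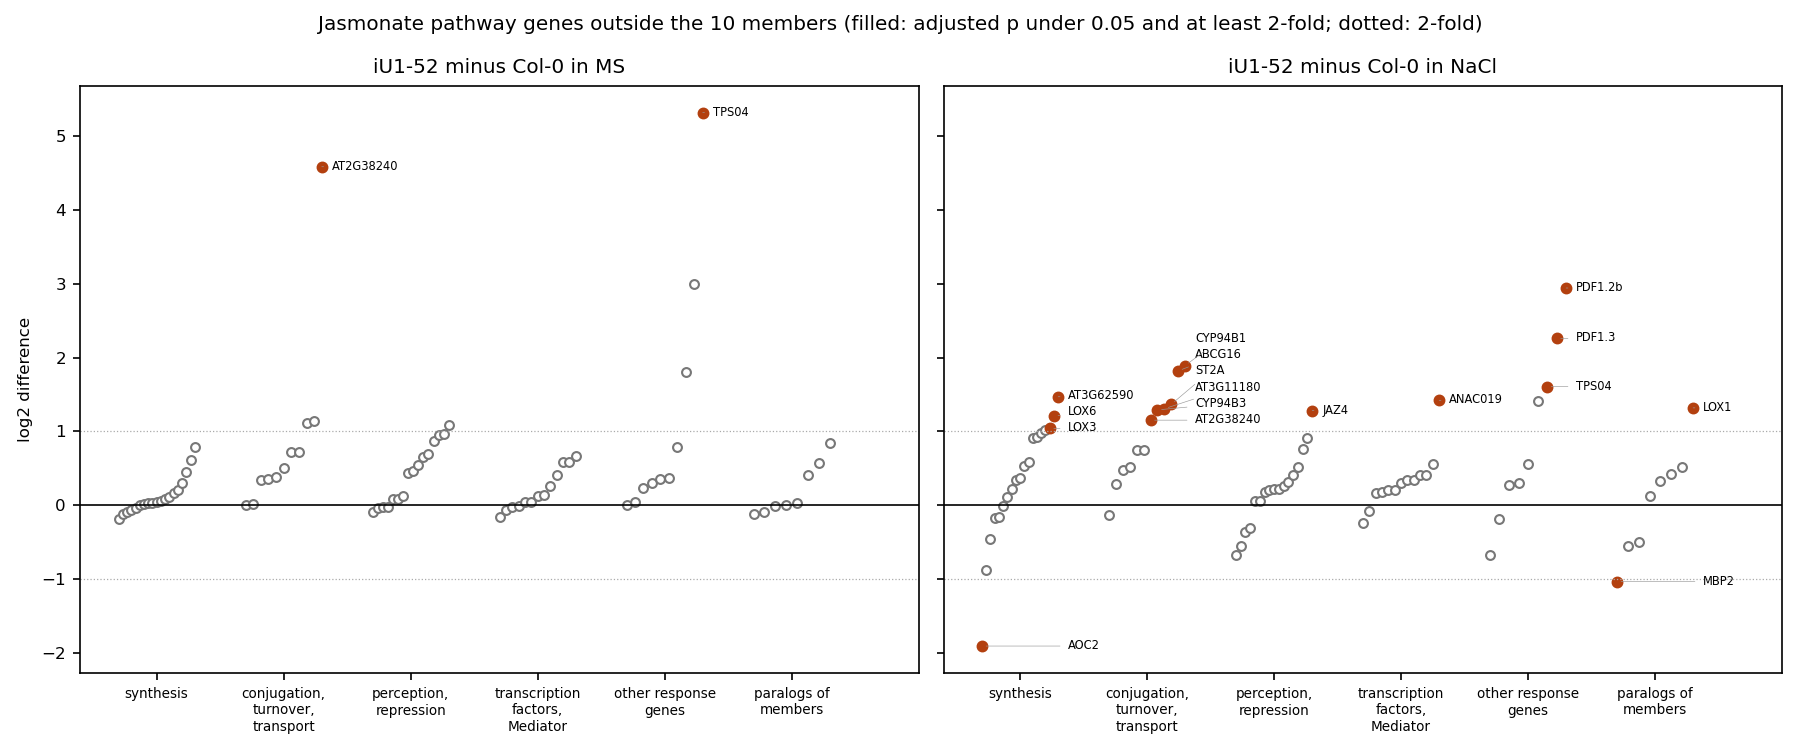
Log2 difference of iU1-52 minus Col-0 on MS (left) and in NaCl (right) for the pathway genes outside the 10 members, by role (horizontal axis). Filled points were called and dotted lines mark 2-fold, and a gene not well above background in a group of a panel is left out of it. On the right, *AOC2* and *MBP2* are the 2 filled points below 0, and *PDF1.2b* is the highest.

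The interaction of line and salt, the test of whether the line difference depended on the medium, was called for 17 of the 80 genes (9.50% of all features were called), 9 in the positive (4.26%) and 8 in the negative direction (5.24%). Without replicate 1 of Col-0 NaCl it was called for 9 genes. The negative ones included AT2G38240 with -3.44 (adjusted p = 0.0017), *AOC2* with -2.52 (adjusted p = 0.001) and *MBP2* with -1.87 (adjusted p = 0.0026). The positive ones included *PDF1.2b* with 2.71 (adjusted p = 0.041) and *PDF1.3* with 1.90 (adjusted p = 0.027). The call of *PDF1.2b* was lost when any 1 of 10 arrays was left out, among them replicate 1 of Col-0 NaCl (adjusted p = 0.067), and that of *PDF1.3* without replicate 1 of Col-0 MS (adjusted p = 0.062) or of Col-0 NaCl (adjusted p = 0.069).

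Salt changed the pathway in both lines. In Col-0, 39 of the 80 genes were called (23.2% of all features), of which 29 rose (11.0%) and 10 fell (12.2%). In iU1-52, 41 were called (27.4%), of which 28 rose (13.1%) and 13 fell (14.3%). The largest rises in Col-0 were those of AT2G38240 by 7.17 (adjusted p = 1.6e-07), *JAZ7* by 4.00 (adjusted p = 2.2e-06) and *CYP94B3* by 3.62 (adjusted p = 1.8e-06). *PDF1.2a* was 132-fold lower with salt in Col-0 against the floor used for dim signals. The adjusted p of 1.1e-06 belongs to its fitted difference of -7.74. In the same line *PDF1.2b* fell by 4.02 (adjusted p = 0.0002) and *ORA59*, an activator of defensin genes, fell by 3.04 (adjusted p = 1.5e-07). With normexp correction the differences were -3.66 for *PDF1.2a* (adjusted p = 3.8e-05) and -2.17 for *PDF1.2b* (adjusted p = 0.00015). In iU1-52, *CYP94B3* rose by 4.55 (adjusted p = 1.8e-07), while *PDF1.2a* fell by 3.45 (adjusted p = 0.00033) and *ORA59* by 2.67 (adjusted p = 2e-07). *NIG1* had the largest fitted fall there, -4.78 (adjusted p = 3.5e-06), from iU1-52 NaCl signals not well above background. With normexp correction *NIG1* gave -1.09 (adjusted p = 0.00055) and *PDF1.2a* -2.75 (adjusted p = 0.0003).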

How the data were processed

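Transcripts were measured in 12 samples, 4 groups of 3 replicates taken from the labels, with one-colour arrays. The authors deposited Feature Extraction 10.7.1.1 output with a Cy3 intensity per spot, background-subtracted within the array and not normalized between arrays. Outlier spots were left out, spots were averaged by probe, and, as in the paper's methods, probes that never reached 100 were dropped. Quantile normalization of the deposited intensities and the log2 scale followed. The 78.8% of probes with a matching accession were named through TAIR10.1 locus tags, and the brightest probe stood for its gene. The tests used limma 3.58.1 under R 4.3.3 (1 mean per group, all 12 arrays), adjusting by Benjamini-Hochberg over 23936 features. The procedure was tested on simulated data.

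Members, pathway list and markers were chosen with earlier results of these data known. Named were all members, a preset group of pathway genes (*COI1*, *MYC2*, *JAR1*, *JAZ1*, *JAZ10*, the *LOX* and *AOC* genes, *PDF1.2a* and paralogs), and those with the largest called changes. *CYP94B3* and AT3G11180 in NaCl, and *JAZ8* and *CLH1* for the interaction, were named after their values were seen. The labels only number the replicates, and the series' design text calls them independent experiments. Alternatives were other scaling, normexp correction (offset 50, on median pixel intensities), filters, probe choice, a replicate block, array weights, other call rules and each array left out. Promoter and protein sequences were not analysed here. The number of arrays limits the precision.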

Additional observations from a re-analysis of the deposited data

Results flagged for a closer look

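In 17 of the 80 pathway genes (9.50% of all features), the difference between iU1-52 and Col-0 in NaCl differed from that on MS by the interaction term of limma. Positive values were 1.04 for *LOX6* (adjusted p = 0.012), 1.47 for AT3G62590 (adjusted p = 0.00093), 1.17 for *CYP94B1* (adjusted p = 0.0193), 1.82 for *ABCG16* (adjusted p = 0.0025), 1.03 for *ST2A* (adjusted p = 0.0058), 1.2 for *JAZ4* (adjusted p = 0.0083), 2.71 for *PDF1.2b* (adjusted p = 0.041) and 1.90 for *PDF1.3* (adjusted p = 0.027). Negative values were -2.52 for *AOC2* (adjusted p = 0.001), -1.87 for *MBP2* (adjusted p = 0.0026), -3.71 for *TPS04* (adjusted p = 0.0098), -3.44 for AT2G38240 (adjusted p = 0.0017), -1.64 for *JAZ7* (adjusted p = 0.0245), -1.31 for *JAZ8* (adjusted p = 0.048) and -1.46 for *CLH1* (adjusted p = 0.021). *JAZ8* lost its call without any 1 of 8 arrays (highest adjusted p = 0.114) and with normexp correction (-0.74), and *CLH1* without replicate 1 of Col-0 NaCl, replicate 3 of Col-0 MS or replicate 3 of iU1-52 MS (adjusted p = 0.0556, 0.0521 and 0.0511). The 2 others, *PDF1.2a* (positive) and *NIG1* (negative), were not well above background in 1 group, and that of *PDF1.2a* was not called with normexp correction (adjusted p = 0.313). With normexp correction, 4 further calls were lost, with 0.94 for *LOX6*, 0.80 for *ST2A* and 0.99 for *JAZ4*, all under 2-fold, and 1.11 for *PDF1.2b* (adjusted p = 0.0995), and AT2G38240 gave -1.50 and *TPS04* -2.21. *AOC2* and *MBP2* were lower in iU1-52 in NaCl, while *TPS04* and AT2G38240 were higher on both media, by less in NaCl. Leaving out 1 array took the call from *LOX6* (replicate 1 of Col-0 NaCl, 0.97, and replicates 2 and 3 of iU1-52 NaCl, 0.93 and 0.88), *CYP94B1* (replicate 1 of Col-0 NaCl, adjusted p = 0.0519, and replicate 2 of iU1-52 NaCl, 0.90) and *ST2A* (replicate 1 of iU1-52 MS, 0.98, replicate 1 of Col-0 NaCl, 0.95, replicate 2 of iU1-52 NaCl, 0.88, and replicate 3 of Col-0 MS, 0.93). *JAZ7* lost its call without replicate 1 of Col-0 MS (adjusted p = 0.0555), replicate 1 or 2 of Col-0 NaCl (adjusted p = 0.0618 and 0.0528) or replicate 2 of iU1-52 MS (adjusted p = 0.0508). *PDF1.3* lost it without replicate 1 of Col-0 MS or of Col-0 NaCl (adjusted p = 0.0623 and 0.0688), and *PDF1.2b* without any 1 of 10 arrays, with adjusted p between 0.0503 and 0.088.

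In 5 members, every iU1-52 array was above every Col-0 array on MS and below every one in NaCl. Of all features, 7.25% were higher in this way on MS and 24.4% lower in NaCl. The share of all features with both was not counted. The difference in NaCl minus that on MS was -2.60 for *VSP1*, -2.70 for *VSP2*, -3.51 for *LOX2*, -3.04 for *MBP1* and -3.00 for *ARGAH2*. This difference was not tested, because the genes were chosen with these values known.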

How the results depend on the processing

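The 3 arrays of a group limit every value. The counts of calls below are set beside no share of all features, so they describe the processing and are no result about the pathway. Calls over all features moved too, in NaCl from 2634 to 1773 with normexp correction and to 3091 without the filter on dim probes. On MS, the 2 calls among the 80 pathway genes became 4 with array weights and 7 by the 2-fold criterion alone. They became 6 by an F test over the 4 group means with the 2-fold criterion, a test that does not separate line from treatment. By adjusted p alone, calls went from 19 to 39 in NaCl, from 17 to 30 for the interaction and from 39 to 59 for salt in Col-0. With each array left out in turn, calls ran from 2 to 3 on MS, from 16 to 21 in NaCl, from 9 to 22 for the interaction, from 36 to 40 for salt in Col-0 and from 39 to 42 for salt in iU1-52. The members' medians then ran from 0.83 to 1.08 on MS, from -1.34 to -1.04 in NaCl, from -2.88 to -2.45 for the difference of the differences, from 0.95 to 1.43 for salt in Col-0 and from -0.13 to 0.11 for salt in iU1-52. The highest median in Col-0 was that without replicate 1 of Col-0 MS.

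Same-numbered arrays share a slide, and their deviations from the group means correlated from -0.05 to 0.21, with 5 of 18 pairs over 0.1. With the replicate block, 2, 18, 17, 39 and 41 genes were called on MS, in NaCl, for the interaction and for salt in Col-0 and iU1-52. The calls of AT2G38240 and *TPS04* in NaCl (adjusted p = 0.0608 and 0.0708) and of *PDF1.2b* for the interaction (adjusted p = 0.0547) were lost under it.

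With normexp correction, 11 of the 79 differences called among the named pathway genes were no longer called, 5 of them for the interaction, 17 were smaller by over 1.5 times on the log2 scale, and 0 were reversed. In NaCl the calls of *LOX3* (0.9993, adjusted p = 0.00435) and *MBP2* (-0.96, adjusted p = 0.00555) fell just under 2-fold. AT2G38240 gave 2.63 on MS. Among the members, *JRG21* gave 2.49 on MS, -1.26 for the difference of the differences and 3.84 for salt in Col-0, and *NATA1* gave 2.66, -2.80 and 4.16.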
